A study of Mus musculus with 5 samples.

Results

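The osteoclast genes are 9 genes by which osteoclasts are usually recognised, taken by symbol from the rows of the deposited count table: the receptor genes *Tnfrsf11a*, *Oscar* and *Calcr*, the transcription factor gene *Nfatc1*, the fusion genes *Dcstamp* and *Ocstamp*, and the resorption genes *Atp6v0d2*, *Acp5* and *Ctsk*. All 9 were found among the 17092 protein-coding genes and reporter sequences of the table. They were measured by bulk RNA-seq in 5 libraries of Cxcl12-GFPhigh tdTomato+ cells, which are CXCL12-abundant reticular (CAR) stromal cells of the bone marrow, isolated by FACS from mouse femurs at postnatal day 21 (P21). The comparison asked how marrow stromal cells of perichondrial origin differ from those of chondrocyte origin.

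The 3 libraries of Dlx5CE-E12.5 cells came from Cxcl12(GFP/+); Dlx5(CreER/+); R26R(tdTomato/+) mice, and the 2 libraries of Fgfr3CE-E12.5 cells came from Cxcl12(GFP/+); Fgfr3-iCreER; R26R(tdTomato/+) mice. All mice received 1 pulse of tamoxifen at E12.5 and carried 1 copy of GFP in the *Cxcl12* locus. Either driver marks whichever cells expressed it around the pulse together with all of their descendants, so tdTomato records descent and not the identity of the cell at P21. Each library was a pool of cells from littermates, described by the study as a biologically independent sample, and the labels number the Fgfr3CE-E12.5 libraries 2 and 3. According to the study's methods, Dlx5CE-E12.5 libraries were read as longer paired-end reads on a NovaSeq and Fgfr3CE-E12.5 libraries as shorter single-end reads on a HiSeq, whereas the labels name the HiSeq for all. If the methods hold, an effect of the instrument or of the reads' length cannot be told apart from one of lineage. Total counts were 32563758, 22035650 and 27135553 in Dlx5CE-E12.5 replicates 1, 2 and 3, and 56355203 and 58166285 in Fgfr3CE-E12.5 replicates 2 and 3. A floor of 3 counts corresponded to 0.0979, 0.141 and 0.119 normalized CPM (CPM, a gene's counts relative to the library's total, here scaled with TMM factors) in the former and to 0.0488 and 0.0473 in the latter, which covers counting error only.

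Osteoclasts are multinucleated cells of the monocyte and macrophage lineage that dissolve bone. Their precursors require CSF1 and RANKL, which stromal cells, osteoblasts and hypertrophic chondrocytes supply; RANKL binds the receptor RANK, NFATc1 is switched on, the precursors fuse, and the fused cell secretes acid and proteases onto the bone surface. Several of the genes named for this cell are also read in other cells, including *Nfatc1* in heart valve endothelium and *Ctsk* in periosteal and other mesenchymal cells.

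Of the 9 genes, *Dcstamp*, *Ocstamp*, *Atp6v0d2* and *Acp5* were higher in Fgfr3CE-E12.5 cells, while *Ctsk* and *Nfatc1*, which are among the 3 highest per kilobase in either group, showed no such difference. A gene was called when its p in the quasi-likelihood (QL) test of edgeR, adjusted by Benjamini and Hochberg's method (BH), was under 0.05 and its absolute log2 fold change, always given as Fgfr3CE-E12.5 over Dlx5CE-E12.5, was above 1. Where 2 or more libraries had to reach a CPM of 10, 3 of the 9 genes were tested; 1 was called higher in Fgfr3CE-E12.5 cells, where 16.4% of all 10088 genes tested were called in that direction, and 0 were called higher in Dlx5CE-E12.5 cells, against 13.1% of all genes. In a second fit, of the 13225 genes that reached a CPM of 1 in 2 or more libraries, 7 of the 9 were tested and 4 were called higher in Fgfr3CE-E12.5 cells, against 16.6% of all genes; 0 were called higher in Dlx5CE-E12.5 cells, against 12.9%. The 0 counts were also 0 at an unadjusted p under 0.05, with edgeR's exact test and with DESeq2's Wald test. *Dcstamp*, *Ocstamp* and *Atp6v0d2* passed the lower filter only through the Fgfr3CE-E12.5 libraries, so their passing already required a difference. *Tnfrsf11a* passed it in both Fgfr3CE-E12.5 libraries and in Dlx5CE-E12.5 replicate 1 (1.27 normalized CPM). The counts of calls are a description. Both Fgfr3CE-E12.5 libraries lay above all 3 Dlx5CE-E12.5 libraries for 5 of the 9 genes, all among the 7 that passed the filter at CPM 1, an arrangement shown by 34.5% of the 13225 genes that passed it. With 3 libraries against 2, a one-sided exact permutation test of a single gene cannot give a p below 0.1. In bulk samples, fewer cells of a type and less RNA per cell cannot be told apart, and this holds for every value below.

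**Figure D1:**
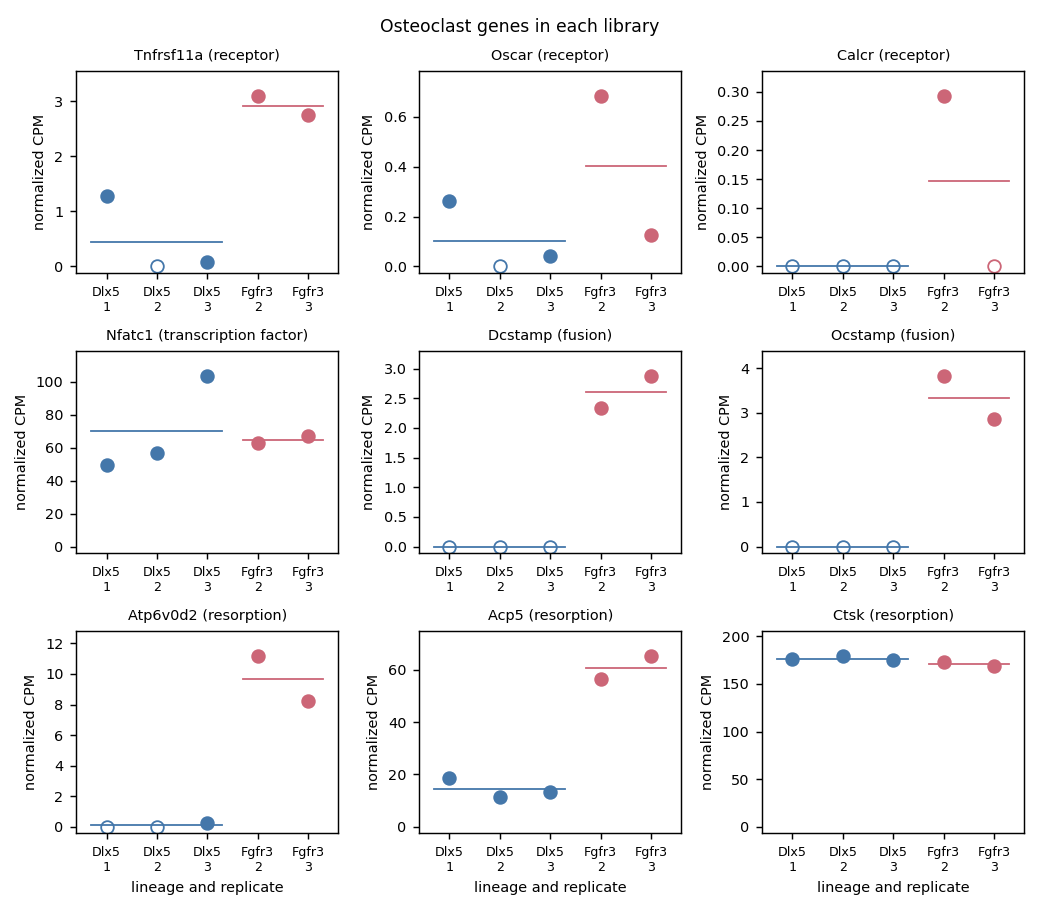
Normalized CPM of the 9 osteoclast genes in each library, with Dlx5CE-E12.5 in blue, Fgfr3CE-E12.5 in red, open circles for 0 counts and lines for group means. *Dcstamp* and *Ocstamp* had 0 counts in all 3 Dlx5CE-E12.5 libraries, and *Ctsk* lay between 169 and 179 CPM in all 5 libraries.

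The fusion genes were the ones read in both libraries of one group and in none of the other. *Dcstamp* (ENSMUSG00000022303; GRCm38 chr15:39745930-39760938), which encodes the membrane protein DC-STAMP needed for osteoclast precursors to fuse, had 0 counts in each Dlx5CE-E12.5 library and 144 and 182 counts in Fgfr3CE-E12.5 replicates 2 and 3. *Ocstamp* (ENSMUSG00000027670; chr2:165393760-165400405), which encodes the related fusion protein OC-STAMP, had 0 counts in each Dlx5CE-E12.5 library and 235 and 181 counts in the Fgfr3CE-E12.5 libraries. Both genes were thus read in each Fgfr3CE-E12.5 library and in none of the Dlx5CE-E12.5 libraries, without overlap. Taken against the floor of 3 counts per library, *Dcstamp* was at least 21.8-fold higher (adjusted p = 0.00221) and *Ocstamp* at least 27.9-fold higher (adjusted p = 0.00178) in Fgfr3CE-E12.5 cells (edgeR QL test, BH over the genes of the fit at CPM 1). Their levels were nevertheless low, at 2.61 ± 0.376 and 3.34 ± 0.682 CPM (SD, n = 2). The Dlx5CE-E12.5 libraries had fewer counts in all, so amounts under their floors were not detectable at this depth.

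Among the resorption genes, *Atp6v0d2* changed most and *Ctsk* least. *Atp6v0d2* (ENSMUSG00000028238; chr4:19876841-19922605), the d2 subunit of the proton pump V-ATPase that is abundant in osteoclasts, had 0, 0 and 6 counts in Dlx5CE-E12.5 replicates 1, 2 and 3 and 686 and 521 counts in the Fgfr3CE-E12.5 libraries. The highest Dlx5CE-E12.5 library was at 0.239 CPM and the lowest Fgfr3CE-E12.5 library at 8.22 CPM, so the groups did not overlap. Over the summed counts the ratio was 124.1, with an exact 95% counting interval from 56.8 to 338.7, and the log2 fold change was 6.87 (standard error, SE, 0.96; adjusted p = 0.00156, same edgeR test, fit at CPM 1). All 6 counts behind the Dlx5CE-E12.5 level came from replicate 3. Without that library the group had 0 counts, so the fitted log2 fold change of 11.74 depends on the prior count and is no measure of size.

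*Acp5* (ENSMUSG00000001348; chr9:22126727-22135711), the gene of tartrate-resistant acid phosphatase (TRAP), had 575, 241 and 330 counts in the Dlx5CE-E12.5 libraries, or 18.8, 11.3 and 13.1 CPM, and 3468 and 4129 counts in the Fgfr3CE-E12.5 libraries, or 56.4 and 65.1 CPM. Each library of either group was well above the floor, and every Fgfr3CE-E12.5 library exceeded every Dlx5CE-E12.5 library. The mean was 14.4 ± 3.87 CPM (SD, n = 3) in Dlx5CE-E12.5 cells and 60.8 ± 6.21 CPM (SD, n = 2) in Fgfr3CE-E12.5 cells, 4.22 times as high, and on the log2 scale the fitted difference was 2.07 (SE 0.23; adjusted p = 0.000577, edgeR QL test, BH). *Acp5* was the only one of the 9 genes that was both measured well above the floor in all 5 libraries and called. The transcript 6530413G14Rik runs on the opposite strand and overlaps the exons of *Acp5* by 137 bases, and the strand setting of the counting is not given in the sources used here, so reads of the overlap cannot be assigned.

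*Ctsk* (ENSMUSG00000028111; chr3:95499256-95509362), the gene of cathepsin K, the collagen-degrading protease of osteoclasts, had 5394, 3801 and 4407 counts in the Dlx5CE-E12.5 libraries and 10676 and 10684 in the Fgfr3CE-E12.5 libraries. Scaled for depth, these were 176, 179 and 175 CPM against 174 and 169 CPM, nearly level in all 5 libraries. The log2 fold change was -0.05 (SE 0.12; adjusted p = 0.768, same edgeR test), and scaling by library size alone turned it to 0.16, so no direction is given. Per kilobase of exon, *Ctsk* was the highest of the 9 genes in both groups.

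The windows upstream of *Acp5* and *Ctsk* are shown because these resorption genes were abundant in both lineages but only the former differed. RefSeq promoters of GRCm38.p6 were matched by symbol for 5 of the 9 genes, with 8 entries, and not for *Nfatc1*, *Dcstamp*, *Ocstamp* and *Atp6v0d2*. The 250 bases before a start site were searched on both strands for a core of NFAT sites (TGGAAA), a core of PU.1 sites (GAGGAA), an AP-1 site (TGANTCA) and an E-box bound by MITF (TCANGTG), which are held by 18.6%, 23.3%, 6.7% and 12.2% of all 32851 promoter windows of this length. Of the 3 *Acp5* starts, the one shown lies farthest downstream, and its window on the reverse strand at chr9:22130599-22130848 has 10 bases in an annotated exon. It held 1 NFAT core and 1 MITF E-box, both as the reverse complement, and the other *Acp5* starts held none of the 4. The most matches were in the window of *Oscar*, with 2 NFAT cores, 1 PU.1 core and 1 MITF E-box, and 1 of the 2 *Calcr* windows held 1 MITF E-box. The *Ctsk* window on the forward strand at chr3:95498960-95499209 overlaps no annotated exon and held 2 PU.1 cores. Capitals mark these matches, which describe the letters only.
Acp5: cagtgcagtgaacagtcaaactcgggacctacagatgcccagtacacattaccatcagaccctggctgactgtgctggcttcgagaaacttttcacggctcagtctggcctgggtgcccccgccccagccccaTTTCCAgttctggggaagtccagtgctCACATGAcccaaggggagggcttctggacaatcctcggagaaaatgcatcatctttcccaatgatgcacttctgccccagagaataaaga
Ctsk: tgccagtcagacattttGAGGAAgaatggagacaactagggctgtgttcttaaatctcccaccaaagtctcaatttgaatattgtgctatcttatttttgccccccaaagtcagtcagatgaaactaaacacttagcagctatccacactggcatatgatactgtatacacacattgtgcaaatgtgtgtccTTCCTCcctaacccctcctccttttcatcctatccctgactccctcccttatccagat

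*Nfatc1* (ENSMUSG00000033016; chr18:80606205-80713071), the transcription factor that drives osteoclast differentiation downstream of RANK, had 1515, 1205 and 2596 counts in the Dlx5CE-E12.5 libraries and 3868 and 4242 in the Fgfr3CE-E12.5 libraries. In CPM these were 49.4, 56.7 and 103 against 62.9 and 66.9, so that both Fgfr3CE-E12.5 libraries fell inside the range of the Dlx5CE-E12.5 libraries, whose replicate 3 stood highest. The log2 fold change was -0.11 (SE 0.31; adjusted p = 0.801, edgeR QL test, BH), and it turned to 0.11 with library size alone and to 0.29 without Dlx5CE-E12.5 replicate 3, never past the threshold.

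In Fgfr3CE-E12.5 cells the receptor genes were the lowest of the 9 per kilobase of exon. *Tnfrsf11a* (ENSMUSG00000026321; chr1:105780718-105847981), the gene of RANK, had 39, 0 and 2 counts in Dlx5CE-E12.5 replicates 1, 2 and 3 and 190 and 174 counts in the Fgfr3CE-E12.5 libraries. Both Fgfr3CE-E12.5 libraries were above all Dlx5CE-E12.5 libraries, at 3.09 and 2.75 CPM against 1.27, 0 and 0.0795 CPM, and replicate 1 stood far above the other Dlx5CE-E12.5 libraries. The log2 fold change was 2.60 with a standard error of 1.22, which did not pass the threshold (adjusted p = 0.126, edgeR QL test, BH over the genes of the fit at CPM 1). The call depended on a single library: without Dlx5CE-E12.5 replicate 1 the log2 fold change was 5.98 and the adjusted p 0.00431 (same edgeR test), and over all 13 alternatives the adjusted p ran from 0.00431 to 0.248. It was also called with the replicate number as a block, where replicate 1, present in 1 lineage only, adds nothing to the comparison. *Oscar* (ENSMUSG00000054594; chr7:3609813-3616157), an immunoglobulin-like receptor that costimulates osteoclast precursors, had 8, 0 and 1 counts in the Dlx5CE-E12.5 libraries and 42 and 8 in the Fgfr3CE-E12.5 libraries. Its groups overlapped, since the count of 8 in Fgfr3CE-E12.5 replicate 3 corresponded to a lower CPM than the same count in Dlx5CE-E12.5 replicate 1. *Calcr* (ENSMUSG00000023964; chr6:3685680-3764714), the calcitonin receptor of mature osteoclasts, had 0 counts in 4 libraries and 18 counts in Fgfr3CE-E12.5 replicate 2. The latter 2 genes missed both filters; with no filter on low counts, their adjusted p-values were 0.384 for *Oscar* and 0.22 for *Calcr* (edgeR QL test, BH).

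Levels can be compared between genes only per length, here as CPM per kilobase of merged exons. In Fgfr3CE-E12.5 cells the order of mean levels was *Ctsk* at 113 ± 2.32 (SD, n = 2), *Acp5* at 29.9 ± 3.06, *Nfatc1* at 8.69 ± 0.384 and *Atp6v0d2* at 3.57 ± 0.763 CPM per kilobase. Next were *Dcstamp* at 0.978 ± 0.141, *Ocstamp* at 0.913 ± 0.186 and *Tnfrsf11a* at 0.487 ± 0.0405, followed by *Oscar* at 0.219 ± 0.213 and *Calcr* at 0.0374 ± 0.0529 CPM per kilobase. *Dcstamp* and *Ocstamp* differed from each other by less than their spread, as did *Oscar* and *Calcr*. In Dlx5CE-E12.5 cells *Ctsk* was again highest, at 117 ± 1.31 (SD, n = 3), and *Nfatc1*, at 9.35 ± 3.91, and *Acp5*, at 7.10 ± 1.91 CPM per kilobase, lay within their spread of each other. The other 6 genes were at or below 0.0753 CPM per kilobase there.

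Of 12 relatives of these genes, 4 were called higher in Fgfr3CE-E12.5 cells and 3 lower. Over all genes tested, 16.4% were called higher and 13.1% lower at CPM 10, and 16.6% and 12.9% at CPM 1. Among the called relatives, *Ramp1* passed the filter at CPM 10 only through the Fgfr3CE-E12.5 libraries and *Ramp2* only through the Dlx5CE-E12.5 libraries. *Calcrl* reached it in each Dlx5CE-E12.5 library and in Fgfr3CE-E12.5 replicate 3 (10.3 CPM), but not in Fgfr3CE-E12.5 replicate 2 (6.06 CPM). The calls of *Ramp1*, *Ramp2* and *Calcrl* are therefore a description. *Atp6v0d1*, the d1 subunit found in most cells, was at 87.6 CPM per kilobase in Dlx5CE-E12.5 cells and 45.3 in Fgfr3CE-E12.5 cells. Its log2 fold change was -0.95, in the direction opposite to *Atp6v0d2* and just short of the fold threshold (adjusted p = 0.000973, edgeR QL test, BH). *Acp2*, a lysosomal acid phosphatase, had a log2 fold change of -0.41 and was not called. Of the cathepsins, *Ctsl* had one of -0.48, not called, whereas *Ctss*, the cathepsin of antigen-presenting cells, was higher in Fgfr3CE-E12.5 cells at 1.90. Within the NFAT family *Nfatc3* was higher in Fgfr3CE-E12.5 cells at 1.01, a call lost in the fit at CPM 1 (0.99), and *Nfatc4* was lower (-1.29), while *Nfatc2* (1.24, adjusted p = 0.0832, edgeR) was not called. The calcitonin receptor-like gene *Calcrl*, which pairs with RAMP proteins, had a log2 fold change of -1.60 and *Ramp2* one of -1.45; *Ramp1* was higher in Fgfr3CE-E12.5 cells at 1.99, and *Ramp3* (1.03) was not called. *Tnfrsf11b*, the gene of the RANKL decoy osteoprotegerin, was higher in Fgfr3CE-E12.5 cells by 1.68, and of the stromal ligands *Tnfsf11* (0.68) and *Csf1* (-0.80) were within the fold threshold while *Il34* was lower in Fgfr3CE-E12.5 cells (-3.18).

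**Figure D2:**
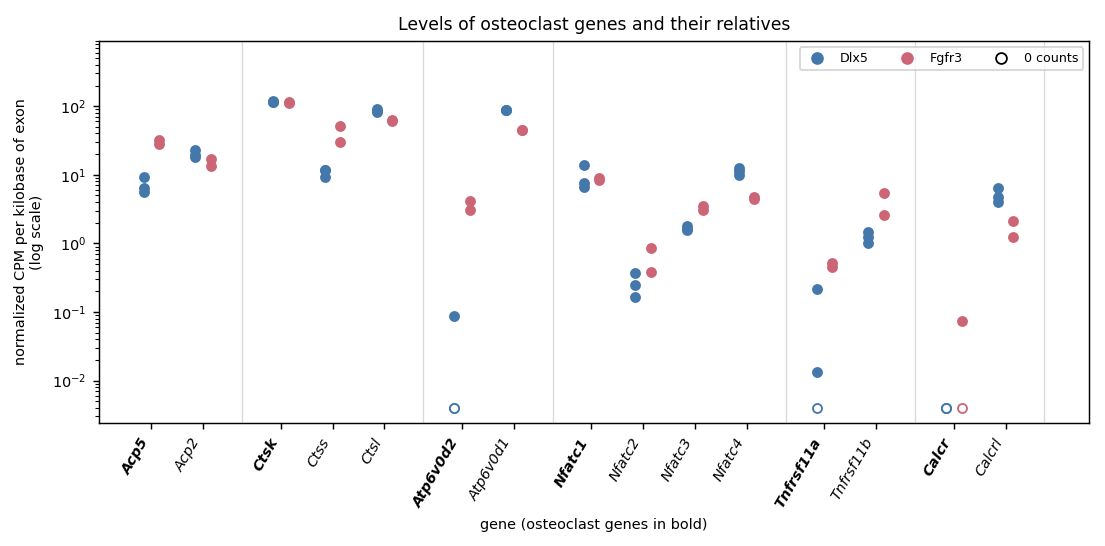
CPM per kilobase of merged exons in each library (log scale) for 6 of the osteoclast genes, in bold, beside relatives, with Dlx5CE-E12.5 in blue and Fgfr3CE-E12.5 in red; open circles at the bottom mark 0 counts. *Ctsk* is level between the groups, and *Atp6v0d1* lies at 87.6 and 45.3 where *Atp6v0d2* lies at 0.0293 and 3.57.

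Another 59 genes of the osteoclast pathway were examined by role, among them the relatives *Atp6v0d1*, *Ctsl* and *Ctss*. Of the 53 that passed the filter at CPM 10, 21 were called higher in Fgfr3CE-E12.5 cells and 4 lower, where 16.4% and 13.1% of all genes were called, with a median log2 fold change of 0.54, where all genes tested had a median of 0.01. Of the 5 genes tested only at CPM 1, 4 were called higher in Fgfr3CE-E12.5 cells (*Trem2*, *Tfec*, *Prdm1* and *Slc9b2*). These 4 passed the lower filter through the Fgfr3CE-E12.5 libraries, as *Btk*, *Tec*, *Vav3* and *Jdp2* passed the filter at CPM 10, so their calls, too, are a description. Of these genes, only *Tfec* also reached its filter in a Dlx5CE-E12.5 library, replicate 3 (1.11 normalized CPM). Scaling by library size alone moved the median of all genes tested from 0.01 to 0.22 and the share of all calls that were higher in Fgfr3CE-E12.5 cells from 55.6% to 66.3%.

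In receptor signalling, 10 of 12 genes were called higher in Fgfr3CE-E12.5 cells and 0 lower; 4 of the 10, *Btk*, *Tec*, *Vav3* and *Trem2*, passed their filter only through these libraries. *Csf1r*, the receptor of CSF1 on monocytes, macrophages and osteoclast precursors, had 369, 327 and 258 counts in the Dlx5CE-E12.5 libraries and 2691 and 4442 in the Fgfr3CE-E12.5 libraries. In CPM the groups did not overlap, and the Fgfr3CE-E12.5 libraries differed from each other, the CPM of replicate 3 being 1.60 times that of replicate 2. Its log2 fold change was 2.18 (SE 0.26; adjusted p = 0.000749, edgeR QL test, BH). The other large changes in this group were those of *Trem2* (3.07; replicate 3 at 2.81 times replicate 2), a receptor that signals through the adaptor of *Tyrobp*, and *Vav3* (2.48), a signalling protein of the actin cytoskeleton; the adaptor genes *Fcer1g* and *Tyrobp*, per kilobase the highest of the group in Dlx5CE-E12.5 and in Fgfr3CE-E12.5 cells respectively, rose by 1.58 and 2.08. *Traf6* (-0.47), which carries the RANK signal, and *Gab2* (0.72) were not called.

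The transcription factor genes were divided. *Jdp2*, an AP-1 family member active in osteoclast formation, was at 0.555, 0.895 and 1.79 CPM in Dlx5CE-E12.5 cells and 89.8 and 97.0 CPM in Fgfr3CE-E12.5 cells. It was near absent from the former, and its Fgfr3CE-E12.5 libraries were alike. Its log2 fold change was 6.45 (SE 0.40; adjusted p = 6.35e-05, same edgeR test). *Jdp2* passed its filter only through the Fgfr3CE-E12.5 libraries, so its call is a description. *Prdm1*, the gene of Blimp1, which silences repressors of the osteoclast programme, rose by 4.93 and *Tfec*, a relative of *Mitf*, by 2.84, and *Spi1*, the gene of PU.1, by 2.63. The last was uneven between the Fgfr3CE-E12.5 libraries, the CPM of replicate 3 being 3.56 times that of replicate 2. *Fosl2* (-1.58) and *Nfkb1* (-1.37) were called in the other direction, and *Fos*, per kilobase the highest of the group in both lineages, was higher in all Dlx5CE-E12.5 libraries but within the fold threshold (-0.70). Of the genes listed as repressors, *Irf8* was called at 1.01, a call lost in the fit at CPM 1 (0.98), and *Bcl6* (-0.04) was not.

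In fusion and adhesion, 5 of 11 genes tested were called higher in Fgfr3CE-E12.5 cells and 2 lower. The former were led by *Adam8* (2.33), *Rac2* (2.23), whose CPM in Fgfr3CE-E12.5 replicate 3 was 2.56 and 2.40 times that in replicate 2, and *Itgb3* (2.19), the β3 chain of the integrin by which osteoclasts and platelets adhere. *Cd81* (-1.34), a tetraspanin and per kilobase the highest of the group in Dlx5CE-E12.5 cells, and *Sh3pxd2a* (-1.37), a podosome scaffold, were lower; in Fgfr3CE-E12.5 cells the tetraspanin gene *Cd9* (1.60) was highest per kilobase. *Siglec15*, a partner of the *Tyrobp* adaptor in osteoclasts, missed both filters, with at most 0.13 CPM in any library.

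Of the 16 genes of acid secretion, 14 were not called. Most of these encode pump subunits and transporters used by many cells, and their log2 fold changes lay between that of *Atp6v0d1* and 0.64 for *Snx10*. *Car2*, the carbonic anhydrase that supplies protons and per kilobase the highest of the group in both lineages, had overlapping libraries and a log2 fold change of 0.54. The 2 called genes were *Atp6v0b*, at 1.02, and *Slc9b2*, a sodium-proton exchanger that rises in osteoclasts, which resembled the fusion genes. *Slc9b2* had 0 counts in each Dlx5CE-E12.5 library and 93 and 126 counts in the Fgfr3CE-E12.5 libraries, without overlap. It was at least 14.6-fold higher in the latter (adjusted p = 0.0035, edgeR QL test, BH over the genes of the fit at CPM 1), although it could pass the filter only through those libraries.

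Among the other proteases, *Mmp9* was at 68.5, 74.4 and 67.5 CPM in Dlx5CE-E12.5 cells and 2488 and 2459 CPM in Fgfr3CE-E12.5 cells, and *Mmp14* at 111, 138 and 200 against 1219 and 1274 CPM. Neither gene overlapped between the groups, and both were nearly equal in the Fgfr3CE-E12.5 libraries. *Ctss*, given above, was the third gene called of 6, and *Ctsb*, a lysosomal cathepsin, had a log2 fold change of 0.04. Per kilobase, *Ctsb* was the highest of the group in Dlx5CE-E12.5 cells and *Mmp9* in Fgfr3CE-E12.5 cells. *Mmp9* is abundant in neutrophils and *Mmp14* in mesenchymal cells as well as in osteoclasts.

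**Figure D3:**
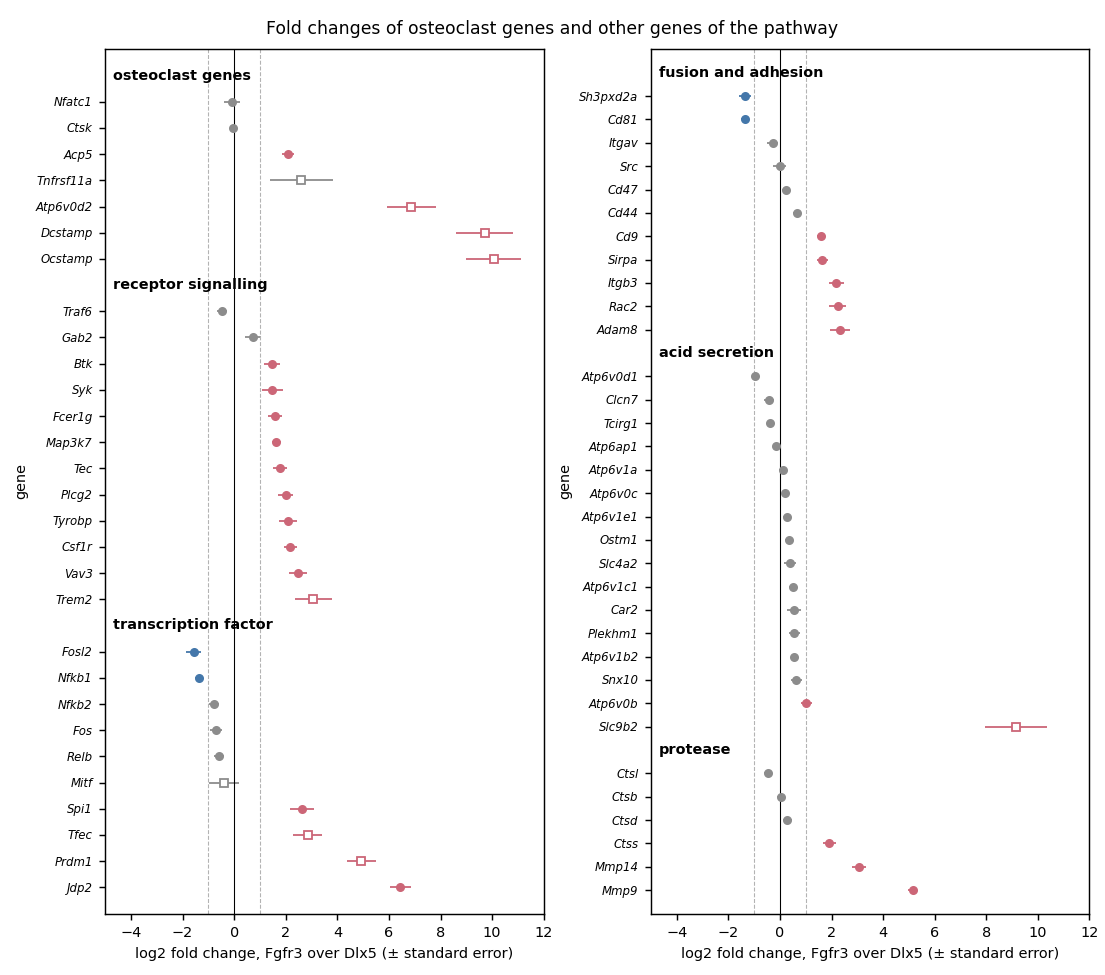
Log2 fold changes, Fgfr3CE-E12.5 over Dlx5CE-E12.5, with standard errors, for the osteoclast genes tested and, by role, other genes of the pathway apart from repressors; red and blue mark genes called higher in Fgfr3CE-E12.5 and Dlx5CE-E12.5 cells, grey marks genes not called, open squares mark genes tested only at CPM 1, and dashed lines mark the fold threshold. Fitted values of *Dcstamp*, *Ocstamp* and *Slc9b2*, with 0 counts in Dlx5CE-E12.5 cells, depend on the prior count and are no measure of size.

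Markers of other cell types also moved with the lineage, and their part in the differences above was not tested. The study's flow cytometry at P21 was of cells negative for CD45 (haematopoietic), Ter119 (erythrocytes) and CD31 (endothelial cells and platelets). Its description of the sort for these libraries names only Cxcl12-GFPhigh tdTomato+ cells. The gene named as highest in a list is the one with the highest CPM per kilobase of exon. The lists share *Fcer1g* and *Tyrobp* (pan-leukocyte) and *Csf1r* (monocyte and macrophage) with the pathway, so these genes are counted in both. A marker under a filter in the Dlx5CE-E12.5 libraries was tested only where the Fgfr3CE-E12.5 libraries passed it. The counts of calls here, and for the other lists and skeletal markers below, stand beside the shares of all genes tested. These were 16.4% higher in Fgfr3CE-E12.5 cells and 13.1% lower at CPM 10, and 16.6% and 12.9% at CPM 1. All 10 pan-leukocyte markers were called higher in Fgfr3CE-E12.5 cells, *Ptprc*, the gene of CD45, by 1.31 and *Lcp1*, *Laptm5* and *Itgb2* by 2.43, 2.39 and 2.29. Their summed level was 554, 506 and 444 CPM in the Dlx5CE-E12.5 libraries and 1381 and 2918 CPM in the Fgfr3CE-E12.5 libraries, with *Arhgdib* the highest in both lineages. Of 14 monocyte and macrophage markers, 9 were called higher in Fgfr3CE-E12.5 cells (8 in the fit at CPM 1, where *C1qb* went from 1.01 to 0.99) and 0 lower, led by *Lyz2* (2.81), *Cx3cr1* (2.73) and *Ccr2* (2.41). Their sum was 433, 569 and 504 CPM against 1612 and 3619 CPM, most of it from *Lyz2*, also the highest per kilobase; the macrophage genes *Mertk* (0.14) and *Mrc1* (-1.05) were not called. All 12 neutrophil markers were called higher, with sums of 2694, 3165 and 2543 CPM against 7095 and 17499 CPM, *Ngp* the highest in both lineages and *Ly6g* (3.64), *Ltf* (2.92) and *Mmp8* (2.82) the most changed. None of these 3 lists had a marker at 0 in all libraries of a group.

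Of the other lists, 3 of 7 B cell markers were called higher in Fgfr3CE-E12.5 cells (among them *Igll1*, 2.17, and *Vpreb1*, 2.03), with sums of 233, 98.7 and 91.6 CPM against 234 and 419 CPM and *Cd79a* the highest in both lineages. Of 7 T and NK cell markers, 3 were tested and *Cd3d* (1.91) and *Nkg7* (1.78), the highest in both lineages, were called higher; the list summed to 22.2, 13.5 and 8.87 CPM against 30.7 and 67.0 CPM. Of 8 erythroid markers 0 were called higher in Fgfr3CE-E12.5 cells and 2 lower, *Hbb-bt* (-1.27) and *Hba-a1* (-1.18), although reads can be split between near-identical globin genes; the sums were 36294, 17799 and 23429 CPM against 13872 and 20634 CPM, with *Hbb-bs* the highest in Dlx5CE-E12.5 cells and *Hba-a2* in Fgfr3CE-E12.5 cells. The 3 megakaryocyte markers tested, *Pf4* (2.93), *Itga2b* (2.29) and *Gp9* (2.11), were all called higher, and the 5 markers summed to 5.35, 6.69 and 6.52 CPM against 59.8 and 16.2 CPM, with *Pf4* the highest in both lineages. Of 5 endothelial markers, *Cdh5* (-2.01) was called, lower in Fgfr3CE-E12.5 cells, at sums of 33.3, 24.9 and 17.2 CPM against 23.4 and 30.8 CPM, with *Pecam1* the highest in both lineages. The erythroid and endothelial calls are few, where 13.1% of all genes at CPM 10 and 12.9% at CPM 1 were called lower.

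Skeletal markers separated the groups too. Of 8 markers of CAR stroma, 5 were lower in Fgfr3CE-E12.5 cells, among them *Cxcl12* (-1.67), the highest in both lineages, *Kitl* (-2.80) and *Vcam1* (-2.04), and *Foxc1* was higher (2.82). They summed to 32308, 34166 and 33254 CPM against 13090 and 8611 CPM. The reporters that define the gate were read in every library, GFP at 10683, 11055 and 12340 CPM against 7454 and 5647 CPM, and tdTomato at 117, 174 and 155 CPM against 55.0 and 69.6 CPM. Both were lower in each Fgfr3CE-E12.5 library than in any Dlx5CE-E12.5 library, by a log2 fold change of -0.79 for GFP, not called, and of -1.26 for tdTomato, called. Of the other reporter sequences, cre had 416, 467 and 456 counts against 1 and 1, a difference far beyond that in depth, and iCre.ERT2 at 14.7, 24.4 and 20.7 CPM against 78.0 and 59.4 CPM. A sequence named eyfp, which the genotypes do not include, was at 112, 148 and 119 CPM against 0 and 0.0947 CPM, and how reads were shared among the reporters was not tested. Of 7 osteoblast markers, 5 were called higher in Fgfr3CE-E12.5 cells, led by *Ifitm5* (2.45), *Dmp1* (2.17) and *Alpl* (1.61), with sums of 5239, 4027 and 3727 CPM against 7222 and 9689 CPM and *Ibsp* (0.21, not called) the highest in both lineages. Of 6 chondrocyte markers, 4 of the 5 tested were called higher, *Col2a1*, the highest in Fgfr3CE-E12.5 cells, by 8.63, *Matn3* by 8.17, and *Acan* and *Col9a1*; *Col9a1* and *Col10a1* had 0 counts in all Dlx5CE-E12.5 libraries. All 4 passed their filter only through the Fgfr3CE-E12.5 libraries. The 6 markers summed to 131, 120 and 123 CPM against 2918 and 410 CPM; nearly all of it in Dlx5CE-E12.5 cells came from *Sox9*, the highest there, which was not called (-0.69).

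The Fgfr3CE-E12.5 libraries were also compared with each other. Over all 10088 genes tested, the CPM in replicate 3 divided by that in replicate 2 had a median of 0.989, and the central 80% of genes lay between 0.664 and 1.45. For *Acp5*, *Dcstamp* and *Nfatc1* this ratio was 1.16, 1.23 and 1.06, and for *Ctsk*, *Tnfrsf11a*, *Ocstamp* and *Atp6v0d2* it was 0.971, 0.889, 0.748 and 0.737, all inside that range. Only *Oscar*, with 42 and 8 counts, fell outside it at 0.185, and *Calcr* was not counted in replicate 3. The ratio was 1.46 to 2.43 for the 10 pan-leukocyte markers and 1.94 to 2.92 for the 12 neutrophil markers, all higher in replicate 3. In the opposite direction, the 6 chondrocyte markers had ratios of 0.0101 to 0.555, all higher in replicate 2, as were 4 of the 5 megakaryocyte markers. Osteoblast markers had a median ratio of 1.97 (0.779 to 3.05), and markers of CAR stroma one of 0.57 (0.332 to 1.14). The central range is of genes that passed the filter at CPM 10, which *Tnfrsf11a*, *Dcstamp*, *Ocstamp* and *Atp6v0d2* did not. The 14 monocyte and macrophage markers had ratios of 0.568 to 2.94 with a median of 1.48, and 6 of them, from *Mertk* (0.825) to *Cd68* (1.43), lay inside the central range, as did 4 of the 5 endothelial markers. *Csf1r* was outside it at 1.60.

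**Figure D4:**
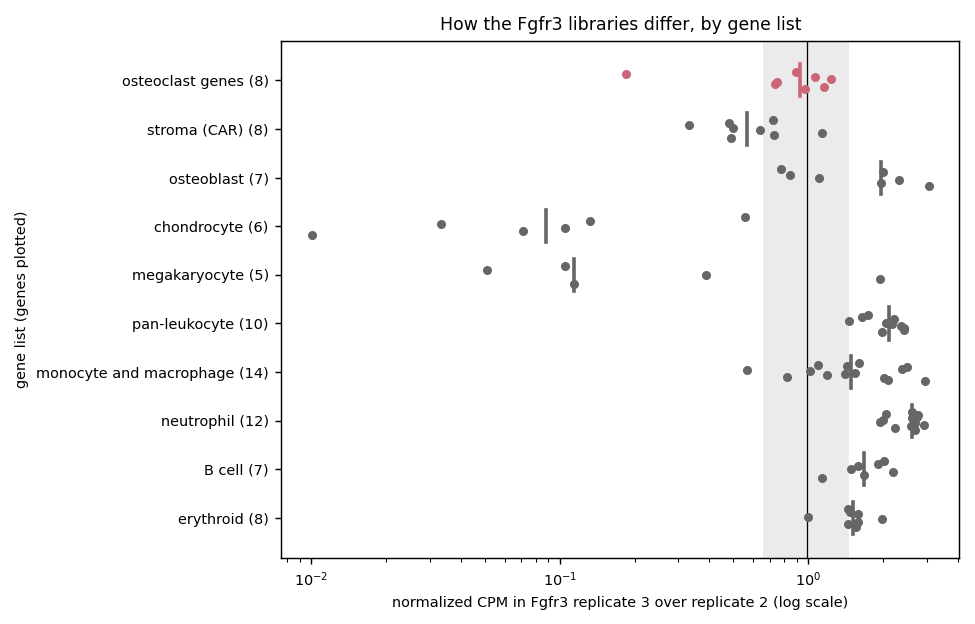
CPM in Fgfr3CE-E12.5 replicate 3 over replicate 2 (log scale) for the genes of each list with more than 3 counts in both, with a bar at each list's median; the vertical line and grey band are the median and the central 80% of all genes tested. Of the 8 osteoclast genes shown, 7 lie inside the band, while all 12 neutrophil markers lie to its right and all 6 chondrocyte markers to its left.

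The genes whose profile over the 5 libraries was most like the mean profile of the 9 osteoclast genes were not genes of the lists. Likeness was the Euclidean distance between mean-centred log2 CPM over the 5 libraries, computed for 13218 genes. The 10 nearest, from a distance of 0.306 to 0.57, were *Plpp6*, *Kit*, *Il17d*, *Rras*, *Abhd17c*, *Depdc1a*, *Phc2*, *Ybx1*, *Bod1* and *Gm10762*. *Plpp6*, the nearest, had 120, 46 and 79 counts in the Dlx5CE-E12.5 libraries and 1789 and 1603 in the Fgfr3CE-E12.5 libraries. *Kit*, the receptor of stem cell factor on haematopoietic progenitors and mast cells, had 287, 97 and 140 counts against 3776 and 2552. Both were lowest in Dlx5CE-E12.5 replicate 2 and higher in Fgfr3CE-E12.5 replicate 2 than in replicate 3. The mean profile averages over genes as unlike as *Ocstamp* and *Ctsk*.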

How the data were processed

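The titles of the samples gave the group of each library. The authors aligned reads to mm10 with TopHat2 2.0.13 and Bowtie2 2.2.1, versions credited to the submitters' processing notes, and deposited counts per gene without normalization; depth-normalized and rlog values were not used here. Of 30046 features, 29965 identifiers were found in GENCODE M21 and 76 were not. The model was edgeR 4.0.16's quasi-likelihood fit (R 4.3.3), with TMM factors, library totals over all features, lineage as the only coefficient and Benjamini-Hochberg adjustment over all genes of the fit. Tests covered protein-coding genes and reporters that reached a CPM of 10 in 2 or more libraries; genes under this filter were taken from a fit at CPM 1. The standard error was the log2 fold change divided by the square root of F. Every pair of libraries differed by more than sampling noise. Intervals and floors cover counting error only, since reads carried no molecular identifiers. Sequence shared with other genes was the percent of 50-base transcript windows found elsewhere on either strand: 4.64% for *Acp5*, 2.80% for *Ocstamp*, 0.59% for *Tnfrsf11a* and 0 for the other 6.

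The osteoclast genes and all lists were chosen with earlier results of these data known. The text names every osteoclast gene, relative and stromal signal; of each other list, up to 3 of the largest changes called, the gene highest per kilobase in each lineage in all but the repressors, and genes at 0 or called against the majority; *Ptprc*, *Csf1r* and *Cxcl12*; and the 10 genes nearest to the mean profile (prior count 2). Other genes named were chosen after their values were seen. *Vsig4*, listed as a macrophage marker, was not matched. Alternatives were DESeq2's size factors, library size alone, DESeq2 1.42.0's Wald test, edgeR's exact test, other filters, all features, no fold threshold, a replicate block and leaving out each library, which kept the genes of the full fit.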

Additional observations from a re-analysis of the deposited data

How the results depend on the processing

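The call of *Acp5* held under all 14 alternatives, with log2 fold changes of 1.93 to 2.31, and *Ctsk* and *Nfatc1* were never called. The calls of *Dcstamp*, *Ocstamp* and *Atp6v0d2* held under all 13 alternatives. These genes passed the filter at CPM 1 only through the Fgfr3CE-E12.5 libraries, and fits without a library kept the genes of the full fit. That their calls held is therefore a description. Lowering the filter to CPM 1, or dropping it, raised the osteoclast genes called higher in Fgfr3CE-E12.5 cells from 1 to 4, since more of them were then tested. With no fold change threshold, the pathway genes called higher in Dlx5CE-E12.5 cells rose from 4 to 9 in either fit, all genes higher in Fgfr3CE-E12.5 cells from 1653 to 2517 at CPM 10, and all genes higher in Dlx5CE-E12.5 cells from 1318 to 2363 at CPM 10 and from 1700 to 2753 at CPM 1. Testing all features raised the last to 3761 and the genes higher in Fgfr3CE-E12.5 cells at CPM 1 from 2196 to 2851, so that calls higher in Dlx5CE-E12.5 cells became the more numerous. The replicate numbers that both lineages share were taken as labels of separate pools. The differences between replicates 2 and 3 in the 2 lineages correlated at r = 0.043 across 10088 genes. Since the genes are not independent and this is 1 comparison, the value cannot decide whether the pools were paired. With the replicate number as a block, 5 osteoclast genes were called at CPM 1 in place of 4, the addition being *Tnfrsf11a* (adjusted p = 0.00613, edgeR QL test, BH); replicate 1 exists only among the Dlx5CE-E12.5 libraries, so the block in effect sets that library aside, and the pathway genes higher in Fgfr3CE-E12.5 cells at CPM 10 went from 21 to 20. On leaving out single libraries, the osteoclast genes called at CPM 1 numbered 4 to 5 and the pathway genes higher in Fgfr3CE-E12.5 cells at CPM 10 numbered 17 to 21; where 1 Fgfr3CE-E12.5 library remained, it was assumed to vary like the other group. Depth limits *Oscar* and *Calcr*, which were near or at the floor in most libraries.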
